A study of Mus musculus with 4 samples.

Results

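The miR-30 family was followed here in 4 mouse small RNA libraries. Its 7 members were miR-30a-5p, miR-30b-5p, miR-30c-5p, miR-30d-5p, miR-30e-5p, miR-30a-3p and miR-30e-3p, taken by name from the 1078 mature miRNA names of the deposited series table. The other arms of the family hairpins, miR-30b-3p, miR-30c-1-3p, miR-30c-2-3p and miR-30d-3p, are given as related miRNAs; miR-384-5p, the fifth related name looked for, was not analysed here.

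All cells came from C57BL/6J mice, with 1 library per cell type. The libraries were from haematopoietic stem cells (HSC), immature dendritic cells (imDC), mature dendritic cells (maDC) and regulatory dendritic cells (DCreg). HSC were bone marrow cells sorted as c-Kit+ Sca1+ Lineage-. For the dendritic cells, femur marrow of mice aged 5 to 6 weeks was grown with the cytokines GM-CSF at 10 ng/mL and IL-4 at 1 ng/mL, and imDC were harvested on day 6 with no bead selection described. The maDC cultures received 10 ng/mL LPS, the bacterial endotoxin that matures dendritic cells, after day 4, and the cells were taken on CD11c beads at day 8. DCreg were such maDC kept for at least 7 days on endothelial-like splenic stromal cells and again selected on CD11c beads, so they share the earlier cytokine and LPS exposure of maDC. No group has a replicate, and no number of mice per library is given in the sources used here. No difference below has a replicate check, and no test across cell types was possible.

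A miRNA hairpin is cut into a duplex of a 5p and a 3p arm, and the arm kept by an Argonaute protein pairs with target messenger RNAs mainly through its seed, bases 2 to 8. Members of the miR-30 family are encoded in hairpin pairs at several loci, and their 5p arms share a seed. In mammals the family is known for repressing genes of autophagy, of fibrosis and of epithelial-to-mesenchymal transition. The study behind these libraries is known for naming miR-30b as a regulator of Notch1, a cell-surface receptor that directs blood cell fates.

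The mature sequences are shown because the results turn on which hairpin and which arm a read came from; they are RefSeq entries on GRCm38.p6, written 5′ to 3′ with the seed in capitals.
miR-30a-5p: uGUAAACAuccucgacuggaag
miR-30e-5p: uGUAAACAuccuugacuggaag
miR-30c-5p: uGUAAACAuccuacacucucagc
miR-30a-3p: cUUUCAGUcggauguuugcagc
miR-30e-3p: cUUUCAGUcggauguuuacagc
miR-30c-1-3p: cUGGGAGAggguuguuuacucc
miR-30c-2-3p: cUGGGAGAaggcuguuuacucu
The seed GUAAACA was shared by 5 names of the series table, which were the 5 5p members. The seed UUUCAGU was shared by miR-30a-3p, miR-30d-3p and miR-30e-3p, and UGGGAGA by miR-30c-1-3p and miR-30c-2-3p. Counted from 1 at the 5′ end, miR-30e-5p differs from miR-30a-5p by C13U, and miR-30e-3p differs from miR-30a-3p by G18A.

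On GRCm38.p6, Mir30a lies at chr1:23272269-23272339 on the plus strand and overlaps no annotated gene. Mir30c-2 lies on the same strand at chr1:23291701-23291784, with 19361 bases between them, in an exon of the long noncoding RNA gene Gm27028. Mir30e at chr4:120772606-120772697 and Mir30c-1 at chr4:120769534-120769622 lie on the minus strand in introns of Nfyc, a gene for a subunit of the CCAAT-binding factor NF-Y, with 2983 bases between them. Mature miR-30c-5p is the same sequence from Mir30c-1 and Mir30c-2, so only the 3p arms tell these hairpins apart.

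Levels are deposited normalized values scaled to parts per 1000000 of a library's total (ppm). Reads recounted from the deposited lists of unique sequences are set beside them, as ppm of all reads placed on a mature miRNA, with exact 95% intervals that cover counting error only. The lists held 4904897 to 6572858 reads, of which 80.2% to 84.0% were placed. The blood-cell miRNA miR-142 was abundant in every library, at 9471 to 20092 ppm for both arms together. miR-155-5p, a miRNA of activated dendritic cells, was at 47.6 ppm in HSC, 2609 ppm in imDC, 1651 ppm in maDC and 141 ppm in DCreg. It was thus higher in imDC, for which no LPS is described, than in the LPS-exposed maDC and DCreg. The library labelled HSC also held miRNAs of other cells: 4 of 5 listed erythroid names were in the table and summed to 15231 ppm, against at most 19.4 ppm elsewhere. The 3 muscle names summed to 8676 ppm in that library, or 22730 ppm in recounted reads, and to 40.6 to 259 ppm in the others. They were uneven in HSC, with miR-1a-3p at 7773 ppm, miR-206-3p at 858 ppm and miR-133a-3p at 44.2 ppm. Lymphoid miR-150-5p was at 914 ppm there and at most 17.1 ppm elsewhere, the 4 stromal names at 1076 ppm there and 61.1 to 254 ppm elsewhere, and both arms of endothelial miR-126 at 121 ppm there and at most 8.0 ppm elsewhere. The part of those cells in any comparison with HSC was not tested, and with 1 HSC library no value without it exists.

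Scaled to the total, the family was lowest in maDC, and DCreg lay between maDC and the other cells. Its 7 members summed to 8239 ppm in HSC, 6546 ppm in imDC, 2652 ppm in maDC and 4475 ppm in DCreg. In recounted reads the sums were 4854 ppm (4795 to 4914) in HSC, 5001 ppm (4941 to 5061) in imDC, 1666 ppm (1632 to 1700) in maDC and 2470 ppm (2422 to 2520) in DCreg. The libraries of HSC and imDC changed order between the scales, while maDC was lowest and DCreg next on both. The order of DCreg and imDC depended on scaling to the total. With trimmed-mean and median-of-ratios scaling, the family log2 ratio to HSC was -0.57 and -0.25 for DCreg. For imDC it was -0.67 and -0.42, so DCreg then lay above imDC. In these bulk samples, fewer cells of a type and less RNA per cell cannot be told apart.

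One member made up most of the family in each library. miR-30d-5p was at 4135 ppm in HSC, 4324 ppm in imDC, 2059 ppm in maDC and 3022 ppm in DCreg. It took 56.2% of the 5p reads in HSC (55.5 to 56.8), 72.9% in imDC (72.4 to 73.5), 79.0% in maDC (78.2 to 79.8) and 68.3% in DCreg (67.4 to 69.3). The remaining 5p reads were divided differently in each library. miR-30e-5p took 18.0%, 19.5%, 15.4% and 9.40% of 5p reads in HSC, imDC, maDC and DCreg. miR-30a-5p took 18.8% in HSC and 3.69% in imDC, and 2.81% in maDC and 19.5% in DCreg, so the HSC and DCreg shares were close and the imDC and maDC shares lay far below both.

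**Figure D1:**
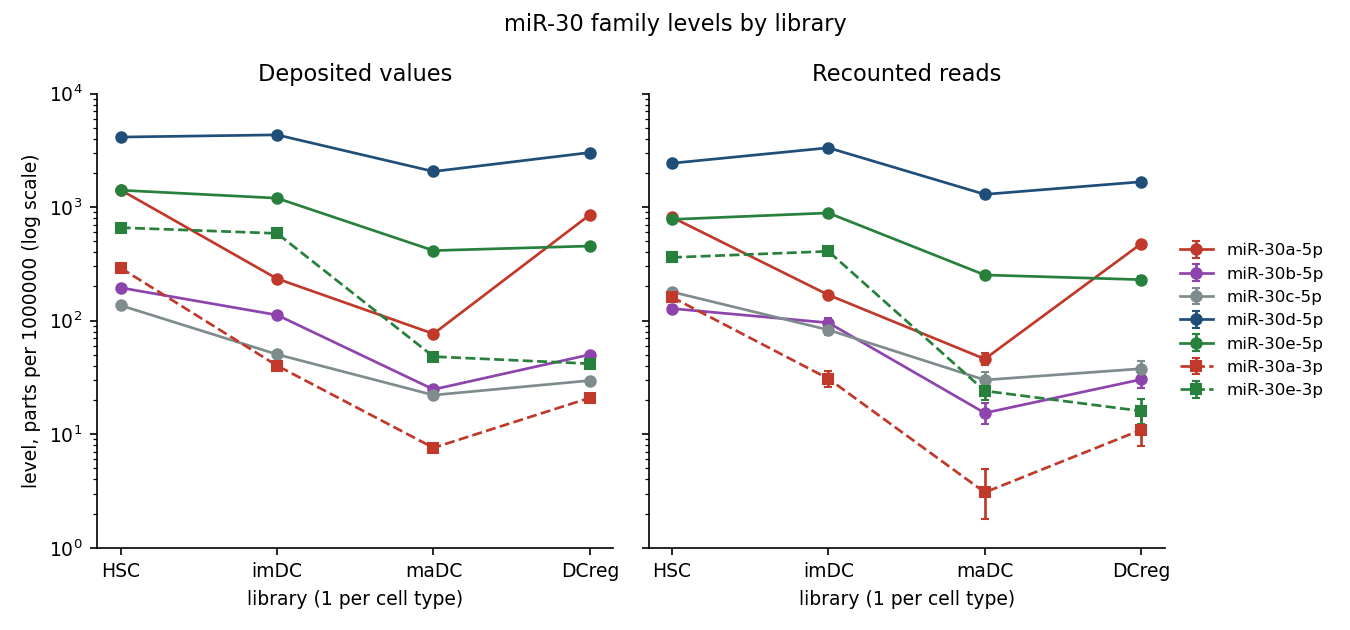
Level of the 7 members in each library, in parts per 1000000 on a log scale, as deposited values (left) and recounted reads (right, with exact 95% counting intervals); circles and solid lines are 5p arms, squares and dashed lines 3p arms. miR-30d-5p is highest throughout, and miR-30a-5p drops to 76.6 ppm in maDC and stands at 856 ppm in DCreg in the deposited values.

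The order below miR-30d-5p differed between libraries. In HSC, the recounted levels of miR-30a-5p, 813 ppm (789 to 838), and miR-30e-5p, 779 ppm (755 to 804), had overlapping intervals. In imDC and maDC miR-30e-5p stood alone in the next place, at 888 ppm and 253 ppm. In DCreg miR-30a-5p took that place with 476 ppm (455 to 498), above miR-30e-5p with 230 ppm (215 to 245). Adapter ligation differs between sequences, so these orders are orders of reads.

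Low in the order, several neighbours could not be separated by counting error. The intervals overlapped for miR-30c-5p (168 to 191 ppm) and miR-30a-3p (150 to 172 ppm) in HSC. In imDC they overlapped for miR-30b-5p and miR-30c-5p, and in maDC for miR-30c-5p and miR-30e-3p. In DCreg they overlapped for miR-30c-5p and miR-30b-5p and for miR-30e-3p and miR-30a-3p. The deposited and recounted scales disagreed on miR-30c-5p: its deposited values were 0.545 to 0.618 times its recounted reads, while those of the other 5p members were 1.15 to 1.47 times theirs. The table lists miR-30c-5p under both hairpins, with 287, 139, 54 and 33 for mir-30c-1 and 289, 126, 45 and 48 for mir-30c-2 in HSC, imDC, maDC and DCreg. Its place relative to miR-30b-5p therefore depended on the scale: in HSC it was below miR-30b-5p in deposited values, 136 against 195 ppm, and above it in recounted reads, 179 against 128 ppm.

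Between imDC and HSC, the called members were the arms of Mir30a and miR-30c-5p, all lower in imDC. A miRNA counted as changed when its deposited level differed at least 2-fold and reached 100 ppm in 1 of the 2 libraries. Of the 7 members, 3 were lower in imDC by this rule, against 28.3% of the 187 miRNAs that reached 100 ppm, and 0 were higher, against 26.2%. The median log2 ratio of the members was -0.80, beside -0.12 over all 187 miRNAs.

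miR-30a-5p, the guide arm of Mir30a, was at 234 ppm in imDC and 1415 ppm in HSC, a 6.05-fold lower level, and 4.83-fold lower in recounted reads (4.49 to 5.19). Its passenger arm miR-30a-3p was at 40.2 ppm in imDC and 291 ppm in HSC, 7.24-fold lower, and 5.23-fold lower in recounted reads (4.42 to 6.23). miR-30c-5p was at 50.5 ppm in imDC and 136 ppm in HSC, 2.70-fold lower, and 2.16-fold lower in recounted reads (1.93 to 2.43). These were the 3 members called. The arm that belongs to Mir30c-2 alone, miR-30c-2-3p, had 6 recounted reads in imDC and 131 in HSC, 22.1-fold lower per placed read (9.90 to 61.4), although at 51.8 ppm in HSC it stayed under the level the rule asks for. By contrast miR-30c-1-3p, from the chromosome 4 hairpin, was at 122 ppm in imDC and 177 ppm in HSC, with an interval of the recounted ratio that included equality (0.818 to 1.06).

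The members that come from neither Mir30a nor a miR-30c hairpin stayed under 2-fold. miR-30d-5p was 1.05 times as high in imDC as in HSC in deposited values and 1.37 times in recounted reads (1.34 to 1.40). miR-30e-5p was at 1199 ppm in imDC and 1408 ppm in HSC, and miR-30e-3p at 587 ppm in imDC and 659 ppm in HSC. Both were lower in imDC in deposited values and higher in recounted reads, 1.14-fold (1.09 to 1.19) and 1.13-fold (1.06 to 1.20). miR-30b-5p was at 112 ppm in imDC and 195 ppm in HSC, 1.74-fold lower; with trimmed-mean scaling its log2 ratio was -1.14, past 2-fold. Of their related arms, miR-30b-3p was at 254 ppm in imDC and 193 ppm in HSC, with a recounted ratio of 1.81 (1.57 to 2.09). miR-30d-3p was at 44.2 ppm in imDC and 25.8 ppm in HSC, with a recounted ratio of 2.16 (1.65 to 2.85). The family sum showed the same turn, with a log2 ratio of -0.33 in deposited values and a recounted ratio of 1.03 (1.01 to 1.05).

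Between maDC and imDC, which differ in LPS, culture day and bead selection, the family was lower. Its sum was 2.47-fold lower in deposited values and 3.0-fold lower in recounted reads (2.93 to 3.07). The 5 members that reached 100 ppm in either library were all called lower, against 45% of 160 miRNAs, and 0 were called higher, against 9.38%. The median log2 ratio over the 160 miRNAs was itself -0.88, beside -1.30 for the family sum. With trimmed-mean or median-of-ratios scaling, which bring the median of all miRNAs to -0.13 and -0.071, the family sum stood at -0.66 and -0.60 and only miR-30e-3p was called lower. miR-30b-5p then stood at -1.53 and -1.47 but under 100 ppm, and the other called members were under 2-fold, so their calls rest on scaling to the total.

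Among the 7 members the difference was largest for miR-30e-3p, the 3p arm of Mir30e, with 48.3 ppm in maDC against 587 ppm in imDC. It was 12.2-fold lower in deposited values and 16.9-fold lower in recounted reads (14.2 to 20.3). miR-30e-5p, from the same hairpin, was at 414 ppm in maDC and 1199 ppm in imDC, 2.90-fold lower. Thus the arms of 1 hairpin differed by unequal amounts. Outside the members, the related arm miR-30d-3p had 3 reads in maDC and 175 in imDC, 61.2-fold lower (20.6 to 299). miR-30a-5p was at 76.6 ppm in maDC and 234 ppm in imDC, 3.05-fold lower.

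miR-30b-5p was at 24.8 ppm in maDC and 112 ppm in imDC, 4.52-fold lower, and 6.23-fold lower in recounted reads (4.94 to 7.93). miR-30d-5p, the most abundant member, had the smallest ratio, with 2059 ppm in maDC and 4324 ppm in imDC, 2.10-fold lower. The members that stayed under 100 ppm in both libraries were miR-30c-5p, at 22.1 ppm in maDC and 50.5 ppm in imDC, and miR-30a-3p, at 7.60 ppm in maDC and 40.2 ppm in imDC. Their recounted levels were 2.76-fold (2.30 to 3.32) and 9.99-fold (6.05 to 17.6) lower in maDC.

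Markers of other cells also differed between these libraries. The granulocyte and monocyte arms of miR-223 summed to 963 ppm in maDC and 3056 ppm in imDC, and the 6 epithelial names to 129 ppm in maDC and 276 ppm in imDC. The 4 stromal names summed to 177 ppm in maDC and 61.1 ppm in imDC. The part of these cells in the lower family level was not tested.

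Between DCreg and maDC, miR-30a-5p rose and the other abundant members stayed within 1.47-fold. The family sum was 1.69-fold higher in DCreg in deposited values and 1.48-fold in recounted reads (1.44 to 1.53). Counting only reads that start at the annotated base and end within the annotated sequence gave a log2 ratio of 1.34. Leaving out miR-30d-5p gave 1.29. Of the 3 members that reached 100 ppm in either library, 1 was called higher, against 20.3% of 138 miRNAs, and 0 were called lower, against 28.3%. The median log2 ratio over the 138 miRNAs was -0.34, beside 0.75 for the family sum in deposited values.

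The called member was miR-30a-5p, with 856 ppm in DCreg against 76.6 ppm in maDC. This was 11.2-fold higher in deposited values and 10.4-fold in recounted reads (9.08 to 11.9). Other products of the same locus were also higher in recounted reads, though below 100 ppm in both libraries. miR-30c-2-3p had 75 reads in DCreg and 5 in maDC, a ratio of 21.1 (8.64 to 66.8). miR-30a-3p had 43 reads in DCreg and 17 in maDC, a ratio of 3.55 (1.98 to 6.64).

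The remaining members were not called. miR-30d-5p was at 3022 ppm in DCreg and 2059 ppm in maDC, 1.47-fold higher. miR-30e-5p was at 454 ppm in DCreg and 414 ppm in maDC, with a recounted ratio of 0.909 (0.835 to 0.989), so that the scales disagreed on its direction. miR-30b-5p, the member that the study singled out, was at 50.3 ppm in DCreg and 24.8 ppm in maDC, a ratio of 2.03, and its recounted ratio was 1.98 (1.49 to 2.65). Both levels lay under the level of 100 ppm that the rule asks for, and both were below the imDC level of 112 ppm and the HSC level of 195 ppm. miR-30c-5p had a recounted ratio of 1.25 (0.997 to 1.57) and miR-30e-3p of 0.665 (0.485 to 0.904).

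Markers of other cells are set beside the miR-30a-5p difference. The 4 stromal names summed to 254 ppm in DCreg and 177 ppm in maDC, with miR-143-3p at 155 ppm in DCreg and 40.9 ppm in maDC, and miR-199a-3p at 79.6 ppm in DCreg and 120 ppm in maDC. The muscle names summed to 259 ppm in DCreg and 45.6 ppm in maDC. In DCreg these were miR-1a-3p at 129 ppm and miR-206-3p at 129 ppm, while miR-133a-3p was at 0 in both libraries. Recounted reads in DCreg were unequal, with 1303 for miR-1a-3p and 288 for miR-206-3p. On that scale the muscle names summed to 405 ppm in DCreg and 63.5 ppm in maDC. The endothelial arms of miR-126 summed to 1.47 ppm in DCreg and 2.46 ppm in maDC. Of the 6 epithelial names, which summed to 39.6 ppm in DCreg and 129 ppm in maDC, miR-205-5p was at 0 in DCreg. The 4 progenitor names summed to 2763 ppm in DCreg and 1045 ppm in maDC, beside 2678 ppm in HSC and 608 ppm in imDC. Most of this was miR-10a-5p, at 2042 ppm in DCreg and 2193 ppm in HSC. The other names differed between DCreg and HSC. miR-196b-5p was at 12.5 ppm in DCreg and 251 ppm in HSC, miR-99a-5p at 345 and 175 ppm, and miR-125b-5p at 363 and 58.0 ppm. Whether such cells were present, and their part in the difference, was not tested.

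**Figure D2:**
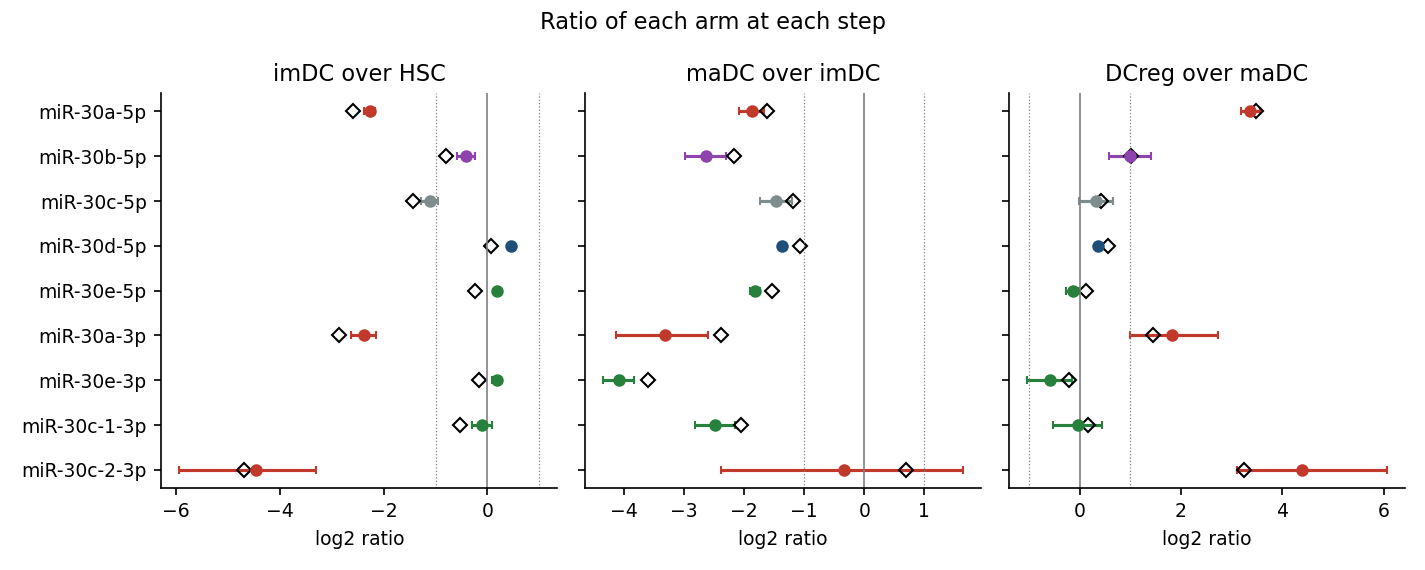
Log2 ratio of each member, and of the 3p arms of both miR-30c hairpins, at each step; filled circles are recounted reads with exact 95% counting intervals, open diamonds deposited values, and dotted lines mark 2-fold. Products of the chromosome 1 hairpins (red) lie left of the others at imDC over HSC, and miR-30a-5p lies at 3.48 in deposited values at DCreg over maDC.

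Between DCreg and HSC, the family sum was 1.84-fold lower, and 1.97-fold lower in recounted reads (1.92 to 2.01); median-of-ratios scaling gave a log2 ratio of -0.25. Of the 7 members, 5 were lower in DCreg, against 56% of 175 miRNAs, and 0 were higher, against 19.4%. The median log2 ratio over the 175 miRNAs was itself -1.43. Beside it, the median of the 7 members was -1.95 and the family sum stood at -0.88. The members called ranged up to miR-30e-3p, with 41.8 ppm in DCreg and 659 ppm in HSC, 15.8-fold lower. The others called were miR-30a-3p (13.9-fold), miR-30c-5p (4.59-fold), miR-30b-5p (3.88-fold) and miR-30e-5p (3.10-fold). miR-30a-5p and miR-30d-5p stayed under 2-fold, at 1.65-fold and 1.37-fold lower.

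Grouping the reads by hairpin pair set the chromosome 1 sum apart from the others, and miR-30a-5p made up most of that sum. The arms that belong to Mir30a and Mir30c-2 alone summed to 1758 ppm in HSC, 276 ppm in imDC, 87.4 ppm in maDC and 908 ppm in DCreg. Those of Mir30e and Mir30c-1 summed to 2243 ppm in HSC, 1907 ppm in imDC, 492 ppm in maDC and 529 ppm in DCreg. Those of Mir30b and Mir30d summed to 4548 ppm in HSC, 4734 ppm in imDC, 2141 ppm in maDC and 3130 ppm in DCreg. The chromosome 1 sum was thus lower in imDC than in HSC by 6.37-fold and higher in DCreg than in maDC by 10.4-fold, while the chromosome 4 sum stayed within 1.18-fold at both of these steps. Recounted reads gave a chromosome 1 ratio of 10.1 (8.93 to 11.5) for DCreg over maDC and a chromosome 4 ratio of 0.893 (0.825 to 0.966).

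The balance of the 3p arms of the miR-30c hairpins also differed between libraries. Among reads of the 3p arms of both miR-30c hairpins, miR-30c-2-3p took 20.7% in HSC (17.6 to 24.1), 1.25% in imDC (0.461 to 2.71), 5.32% in maDC (1.75 to 12.0) and 54.7% in DCreg (46.0 to 63.3). The reads behind these shares were 633 in HSC and 479 in imDC, and 94 in maDC and 137 in DCreg. The DCreg interval lay above those of the other libraries, and the imDC and maDC intervals overlapped. The shared 5p arm, miR-30c-5p, did not show which hairpin it came from.

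**Figure D3:**
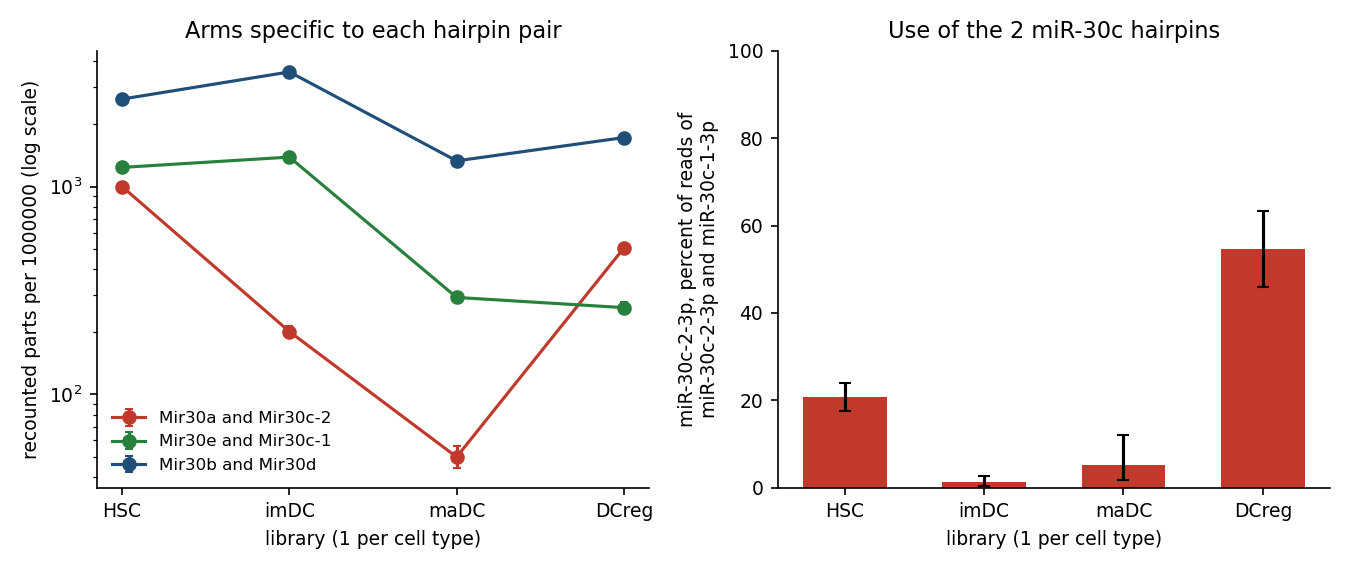
Left, recounted level on a log scale of the arms that belong to 1 hairpin pair alone, with exact 95% counting intervals mostly smaller than the points. Right, miR-30c-2-3p as a percent of the reads of miR-30c-2-3p and miR-30c-1-3p, with exact 95% binomial intervals, from 1.25% in imDC to 54.7% in DCreg.

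Reads of miR-30a-5p can also arise by misreading of its near relatives. The first 18 bases of miR-30a-5p differ from those of miR-30d-5p and of miR-30e-5p at 1 base. miR-30a-5p reads were 33.4% of miR-30d-5p reads in HSC and 5.07% in imDC, and 3.55% in maDC and 28.5% in DCreg. The same base change at 5 other positions of miR-30d-5p gave at most 1.63% of its reads in HSC and imDC, 2.24% in maDC and 2.83% in DCreg. Against miR-30e-5p, miR-30a-5p reads ran from 18.2% in maDC to 207% in DCreg, and the corresponding change at 2 other positions of miR-30e-5p gave at most 0.221% of its reads in any library. Against miR-30d-5p, in HSC and DCreg miR-30a-5p was over 10 times the most that such reads reached, while in imDC and maDC it was much closer to that share, and how many of those reads came from miR-30d-5p was not tested. miR-30a-3p also lies 1 base from miR-30e-3p.

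The 3p arms of Mir30a, Mir30d and Mir30e took a smaller share of reads in maDC and DCreg than in HSC and imDC. For Mir30e, 3p reads were 31.6% of both arms in HSC (30.5 to 32.8), 31.5% in imDC (30.4 to 32.6), 8.70% in maDC (7.34 to 10.2) and 6.52% in DCreg (5.05 to 8.27). The HSC and imDC intervals overlapped, as did those of maDC and DCreg, and the pairs lay well apart. For Mir30a, 3p reads were 16.5% in HSC (15.5 to 17.6), 15.4% in imDC (13.3 to 17.8), 6.27% in maDC (3.70 to 9.85) and 2.24% in DCreg (1.63 to 3.01). Counting only reads that start at the annotated base and end within the annotated sequence raised the Mir30e shares to 81.0%, 82.2%, 40.5% and 29.6% in HSC, imDC, maDC and DCreg, since most 5p reads are longer than annotated.

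Mir30d had the smallest 3p share of the 4 hairpins. Its 3p arm had 80 reads in HSC and 175 in imDC, and 3 in maDC and 2 in DCreg, which were 0.628%, 0.988%, 0.0419% and 0.0305% of both arms. Mir30b did not share the pattern of Mir30a, Mir30d and Mir30e. Its 3p share was 31.3% in HSC (28.3 to 34.3), 52.3% in imDC (49.2 to 55.3), 54.3% in maDC (46.9 to 61.6) and 39.7% in DCreg (32.8 to 46.9). The imDC and maDC intervals overlapped, as did those of HSC and DCreg, and the DCreg interval lay below that of imDC. The deposited 3p values of Mir30b were 1.97 to 2.70 times its recounted reads, so its deposited shares were higher, at 49.7% to 69.8%.

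Set against other hairpins, a lower share of the lesser arm was common in maDC. The ratio of lesser to main arm was at least 2-fold lower in maDC than in imDC for 3 of the 4 family hairpins with enough reads, against 41.4% of 70 hairpins, and 0 were higher, against 10%. The log2 change was -2.26 for Mir30e, -1.42 for Mir30a, -4.35 for Mir30d and 0.12 for Mir30b, with a median of -0.61 over the 70 hairpins. Only 1 of the 70 hairpins had a lower value than Mir30d, and 9 had a lower value than Mir30e. Between DCreg and maDC, Mir30a was lower by 1.57 on the log2 scale and was the only 1 of 3 family hairpins past 2-fold, against 20.8% of 48 hairpins, and 0 were higher, against 12.5%. Between imDC and HSC, 0 of 4 were lower, against 9.72% of 72, and Mir30b alone was higher, against 18.1%.

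**Figure D4:**
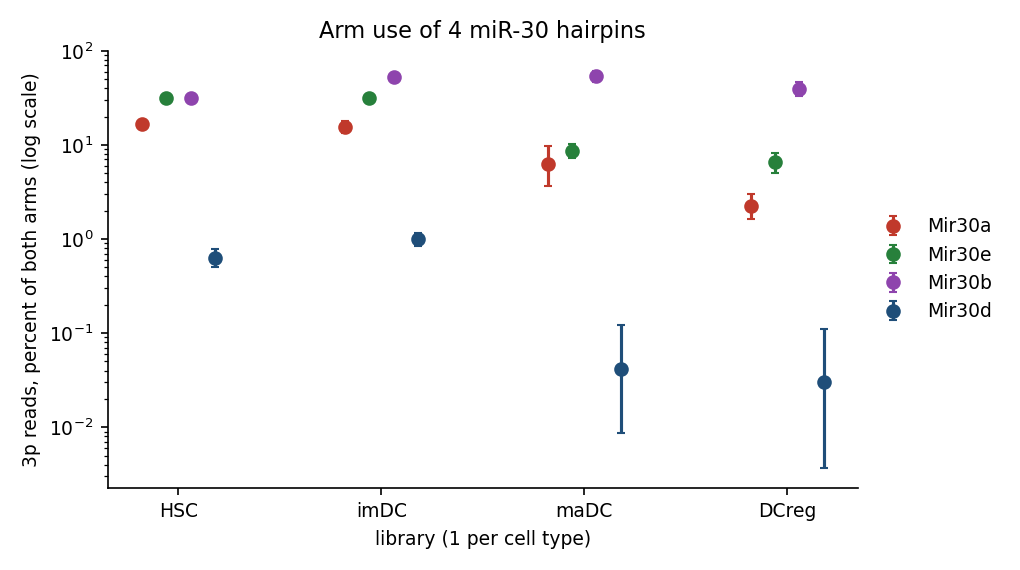
Reads of the 3p arm as a percent of both arms of 4 miR-30 hairpins, on a log scale, with exact 95% binomial intervals. Mir30e sits near 31.5% in HSC and imDC and at 8.70% and 6.52% in maDC and DCreg, while Mir30b stays between 31.3% and 54.3%.

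The 5p reads had a fixed start and a variable 3′ end. Reads of the 5 5p members nearly all began at the annotated base, in 97.6% or more for each member and library, so the seed was kept. At the 3′ end, most reads of miR-30e-5p were longer than annotated, with 93.5% in HSC and 93.4% in imDC, and 94.4% in maDC and 88.3% in DCreg. miR-30d-5p (76.9% to 86.6%), miR-30a-5p (68.1% to 79.8%) and miR-30c-5p (64.3% to 76.3%) were also mostly longer. miR-30b-5p was the exception among 5p members, with 12.4% to 14.8% of reads longer. These shares are counted from where each annotated sequence ends, so they do not compare the 3′ ends of different members directly. DCreg had the lowest share of longer reads for miR-30a-5p, miR-30c-5p, miR-30d-5p and miR-30e-5p.

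The commonest reads show which bases were added; capitals mark bases past the annotated 3′ end.
miR-30a-5p in HSC, 1610 of 4227 reads: uguaaacauccucgacuggaagC
miR-30e-5p in HSC, 1735 of 4050 reads: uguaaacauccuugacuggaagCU
miR-30c-5p in HSC, 465 of 897 reads: uguaaacauccuacacucucagcU
These added bases are those of the hairpin. In maDC the leading form of miR-30a-5p was the one that ends in CU, with 76 of 254 reads, and in DCreg the annotated form was the second commonest, with 483 of 1873 reads. Reads of miR-30e-5p that end in U bases not held by the hairpin were 15.9% in HSC and 9.73% in imDC, and 11.5% in maDC and 7.75% in DCreg, against 1.37%, 1.01%, 4.33% and 1.01% for miR-30a-5p. Reads of miR-30e-5p that end in such A bases were 7.16%, 7.08%, 9.89% and 12.2% in HSC, imDC, maDC and DCreg.

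**Figure D5:**
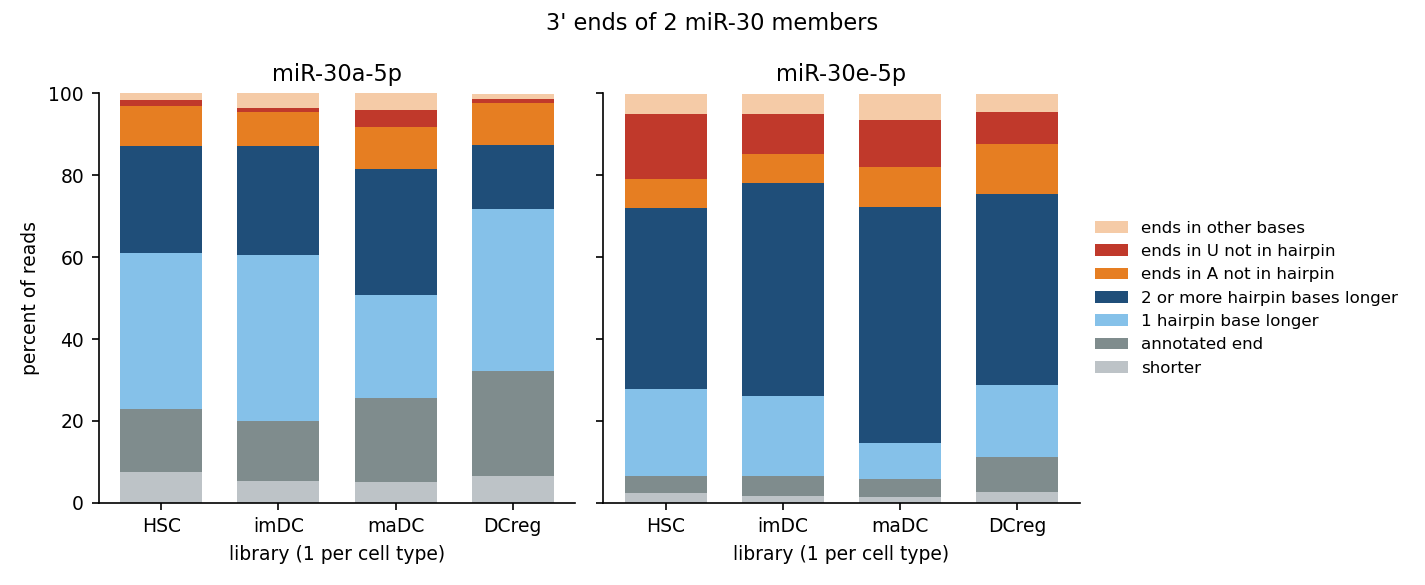
Percent of reads of miR-30a-5p (left) and miR-30e-5p (right) by 3′ end, in each library; blue classes end in hairpin bases past the annotated end, and orange and red classes in A or U bases that the hairpin does not hold. The annotated end takes 14.8% to 25.8% of miR-30a-5p reads and 4.17% to 8.64% of miR-30e-5p reads.

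The start of the 3p arms was less fixed, and for miR-30a-3p it moved the seed. Of its reads, 34.3% of 825 in HSC and 31.0% of 155 in imDC, and 43.8% of 16 in maDC and 35.7% of 42 in DCreg began 1 base late. The leading read of this kind is shown with bases 2 to 8 of the read itself in capitals, beside the annotated start.
miR-30a-3p, annotated start, 201 reads in HSC: cUUUCAGUcggauguuugcag
miR-30a-3p, later start, 97 reads in HSC: uUUCAGUCggauguuugcag
The sister arm miR-30e-3p, which differs by G18A, began late in 3.38% of reads in HSC and 3.13% in imDC, and 9.85% in maDC and 1.61% in DCreg. Late starts of miR-30b-3p were 7.28% in HSC and 3.98% in imDC, and 21.8% in maDC and 26.6% in DCreg, and those of miR-30c-1-3p were 9.56%, 7.82%, 15.7% and 24.2%.

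Outside the family, the profiles nearest to the family sum over the 4 libraries were those of let-7d-3p, miR-15a-5p, miR-26a-5p, miR-3968 and miR-146a-5p, with root mean square differences of 0.26 to 0.39 on the log2 scale among 187 miRNAs. let-7d-3p, the nearest in deposited values, was at 233 ppm in HSC, 215 ppm in imDC, 121 ppm in maDC and 143 ppm in DCreg. In recounted reads miR-15a-5p was the nearest. miR-3968 had 0 recounted reads and is named from the deposited values only. Nearest to miR-30a-5p were miR-322-5p (0.67), miR-99a-5p (0.73) and miR-146a-5p (0.94). miR-99a-5p was at 175 ppm in HSC, 29.7 ppm in imDC, 8.27 ppm in maDC and 345 ppm in DCreg, and is also 1 of the progenitor markers above. Nearest to miR-30b-5p were miR-223-3p (0.33), a miRNA of granulocytes and monocytes, miR-15b-5p (0.36) and miR-503-5p (0.38). In recounted reads miR-15b-5p came before miR-223-3p. miR-223-3p was at 3438 ppm in HSC, 2264 ppm in imDC, 635 ppm in maDC and 669 ppm in DCreg.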

How the data were processed

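Small RNA was extracted with the mirVana kit, gel purified, ligated and amplified for 12 cycles, and clean reads were compared with miRBase release 19, per the labels' protocols. The deposited series table gives whole-number values that its header calls normalized counts; they were treated as a score, because the labels and headers do not say how the authors normalized them. The aligner, genome build and handling of shared reads: not given in the sources used here. Columns summed to 4226458 (HSC), 5251069 (imDC), 4475569 (maDC) and 2725948 (DCreg); values were summed over hairpins, scaled to 1000000, and compared as log2 ratios with a pseudocount of 0.5.

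The deposited unique-sequence lists give other values, the copy number of each sequence. They were matched exactly to the table's mature sequences, with at least 16 matched bases, a start within 2 bases of the annotated start, and at most 5 unmatched 3′ bases; ties were divided equally. Intervals are exact (Clopper-Pearson for shares, conditional binomial for ratios) at 95%; PCR copies are not independent molecules, so they cover counting error only. Scripts were tested on simulated data (Python 3.11.15, NumPy 2.4.6, SciPy 1.17.1, Matplotlib 3.10.9). Arm ratios used hairpins with at least 100 reads of both arms in each library and 20 of the lesser arm in 1. Hairpin positions and sequences are from RefSeq on GRCm38.p6, and host genes from its GENCODE annotation, matched by name; the 8 RefSeq entries used equal the table's sequences.

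The members and marker lists were chosen with earlier results of these data known. The text names the 7 members, the related arms, and by likeness the 5 miRNAs nearest to the family sum and the 3 nearest to miR-30a-5p and to miR-30b-5p (root mean square difference of log2 of ppm plus 1, centred on each profile's mean). Alternatives were other scalings, pseudocounts, filters, folds and recounts. The recount called without unmatched bases kept only reads that start at the annotated base and end within the annotated sequence.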

Additional observations from a re-analysis of the deposited data

How the results depend on the processing

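Each group has 1 library, so nothing could be left out in turn. No paired analysis was possible because no group has more than 1 library. The family log2 ratio of imDC over HSC was -0.67 with trimmed-mean scaling, -0.42 with median-of-ratios, -0.081 per read of the list, -0.29 without the 5 most abundant miRNAs of each library in the total, 0.043 in recounted reads, -0.075 without unmatched bases, 0.032 with 1 mismatch, -0.30 for 5p members and -0.89 without miR-30d-5p. In the same order, maDC over imDC was -0.66, -0.60, -1.54, -1.21, -1.59, -1.98, -1.55, -1.19 and -1.90, and DCreg over HSC was -0.57, -0.25, -1.16, -0.40, -0.97, -0.71, -0.94, -0.72 and -1.50. DCreg over maDC was 0.46 per read of the list, 1.10 without the 5 most abundant, 0.57 in recounted reads, 1.34 without unmatched bases, 0.57 with 1 mismatch and 1.29 without miR-30d-5p. Recounting turned the direction of imDC over HSC. The cause of these shifts was not tested.

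Members called between maDC and imDC were 1 with either of the first 2 scalings, 3 without unmatched bases and 2 at 4-fold. Between DCreg and maDC they were 2 without unmatched bases and 3 with a filter of 10 ppm or none, and between DCreg and HSC 3 without unmatched bases and 3 at 4-fold. The 3p share of Mir30a without unmatched bases was 30.9% in HSC, 29.8% in imDC and 3.50% in DCreg. That of Mir30e was 81.0% in HSC and 82.2% in imDC, and 40.5% in maDC and 29.6% in DCreg without unmatched bases, and 32.9% in imDC, 10.4% in maDC and 8.43% in DCreg in deposited values. No called member changed sign under any alternative. Over 56 member values per comparison, 10 changed sign for imDC over HSC, 0 for maDC over imDC, 5 for DCreg over maDC and 3 for DCreg over HSC. Depth limits miR-30d-3p in maDC and DCreg and miR-30c-2-3p in imDC and maDC, with 2 to 6 reads.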

Other observations

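Reads that differ from a 5p member at 1 internal base, and that the recount rule had not placed, were counted apart. A change near the 3′ end can pass that rule, within its 5 unmatched 3′ bases, and such reads are not in these shares. The reads counted apart made up 6.24% of miR-30d-5p reads in HSC and 6.08% in imDC, and 5.98% in maDC and 7.47% in DCreg, counting exact and mismatched reads together. For miR-30a-5p the shares were 6.96% in HSC and 10.7% in imDC, and 13.3% in maDC and 6.12% in DCreg, with the higher shares in the libraries where miR-30a-5p had the fewest exact reads, 888 in imDC and 254 in maDC. For miR-30e-5p they were 10.1% in HSC and 8.17% in imDC, and 8.22% in maDC and 11.0% in DCreg. The commonest single change of miR-30a-5p had 15 reads in maDC, 5.91% of its exact reads, and 36 reads in DCreg, 1.92%.

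The lengths of miR-30e-3p reads were more spread in maDC and DCreg. Its reads of 22 nt were 65.6% of 1862 in HSC and 64.6% of 2142 in imDC, and 26.5% of 132 in maDC and 29.0% of 62 in DCreg. In maDC its commonest read carried an A past the annotated end, with 25 of 132 reads, and reads ending only in A bases not held by the hairpin were 23.5% in maDC, against 7.56% in imDC. In DCreg that share was 8.06%.

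Direct comparison of DCreg with imDC skips the maDC stage. Of the 5 members tested by the same rule, 1 was higher, against 16.1% of 168 miRNAs, and 3 were lower, against 56%. Over these miRNAs the median log2 ratio was itself -1.25, beside -1.15 for the 5 members. miR-30a-5p was 3.66-fold higher in DCreg, and miR-30e-3p 14.0-fold, miR-30e-5p 2.64-fold and miR-30b-5p 2.23-fold lower. The log2 ratios of miR-30e-5p (-1.40) and miR-30b-5p (-1.15) lay near the median of the 168 miRNAs. That of miR-30e-3p (-3.80) lay far below it. Whether these calls hold with the other scalings was not tested.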
